A study of Mus musculus with 29 samples.

Results

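The most open regions of adult mouse prefrontal cortex were the 7412 regions, of 237287 in the deposited table (3.12%), whose mean level over all 12 adult libraries reached 20 CPM, that is, counts scaled to a common library size. They were selected on these levels, so their height is a description and carries no test. The mean pools both genotypes and both sexes, and the differences between genotypes and between sexes played no part in the choice. The study profiled chromatin of a Myt1l knockout mouse line by ATAC-seq. The adult prefrontal cortex (PFC) gave 6 wild-type libraries (WT, replicates 1, 7, 28, 35, 58 and 62) and 6 libraries from mice labelled heterozygous for the Myt1l knockout (Het, replicates 11, 21, 41, 44, 47 and 50), with 3 males and 3 females in each genotype. No other allele and no treatment is named for either group, and an age beyond adult and a strain were not given in the sources used here. Nothing in the labels says that libraries came from separate animals or litters, so p-values measure the spread between these libraries. The deposited values had been corrected for unwanted variation, so it is the spread left after that correction.

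ATAC-seq uses the Tn5 transposase to cut and tag DNA that is free of nucleosomes, so a high read level in a region marks chromatin that the enzyme reached easily. In many tissues the most accessible regions are promoters of broadly used genes and sites bound by architectural proteins such as CTCF, while distal regions of lower level differ more between cell types. MYT1L is a zinc finger transcription factor of neurons that is known for repressing genes of other cell fates, and loss of 1 copy in people is linked to a neurodevelopmental syndrome. In bulk tissue, a lower level can come from fewer cells of a type with an open region or from less opening per cell, and these cannot be told apart. Regions carry an identifier and a level, so positions, genes and sequences were not analysed here, and neither the Myt1l gene nor cell type markers could be checked.

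The 7412 regions held 25.4% of the summed mean CPM of the table, between 24.3% and 26.3% in the single libraries. Their median was 28.6 CPM. Most stood close to the threshold: 2546 lay between 20 and 25 CPM and 5735 between 20 and 40 CPM, against 1547 between 40 and 80 CPM, 118 between 80 and 160 CPM and 12 at 160 CPM or more. The member nearest to the threshold had 20.001 CPM, and 601 members lay within 1 CPM above it, while 738 regions lay within 1 CPM below. In 5895 members (79.5%) all 12 libraries were at 20 CPM or more, and 1517 had at least 1 library below it. The mean of WT alone was at 20 CPM or more in 7316 members and that of Het alone in 7198, with 7102 in both.

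At the top, 12 regions stood far above the rest. The highest, all_pfc_peak_133996, ran from 3118 to 4419 CPM in WT with a median of 3824, and from 2768 to 4263 CPM in Het with a median of 3329. Its mean of 3610 CPM was 126 times the median member. The next, all_pfc_peak_225169, ran from 2505 to 3036 CPM in WT (median 2796) and from 2058 to 2935 CPM in Het (median 2543). The groups overlapped in both, with WT 62 the highest of the WT libraries and Het 47 the highest of the Het libraries. In all_pfc_peak_71956 the WT libraries spanned 1389 to 1741 CPM (median 1498) and the Het libraries 1187 to 1663 CPM (median 1333).

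The other 9 of the 12 regions at 160 CPM or more fell from 1143 CPM (all_pfc_peak_236910) and 1004 CPM (all_pfc_peak_103497) to 201 CPM (all_pfc_peak_133995). Identifiers of 4 of the 12 were consecutive, from all_pfc_peak_133993 to all_pfc_peak_133996, and all_pfc_peak_236909 and all_pfc_peak_236910 formed another run. The 12 shared their extreme libraries: 10 were highest in WT 62 and 8 were lowest in Het 21, and those 8 were all among the 10. Their summed level ran from 11407 to 14171 CPM in WT (median 12586) and from 10031 to 13709 CPM in Het (median 11318), so the genotypes overlapped. All 12 had a lower Het than WT value, by 0.04 to 0.21 on the log2 scale, and none passed the limma test described below (lowest adjusted p = 0.0841). For the 3 highest, the Het minus WT difference in log2 CPM was -0.18 (SE 0.07, limma adjusted p = 0.189), -0.14 (SE 0.06, adjusted p = 0.261) and -0.17 (SE 0.06, adjusted p = 0.176), in the order of their levels.

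**Figure D1:**
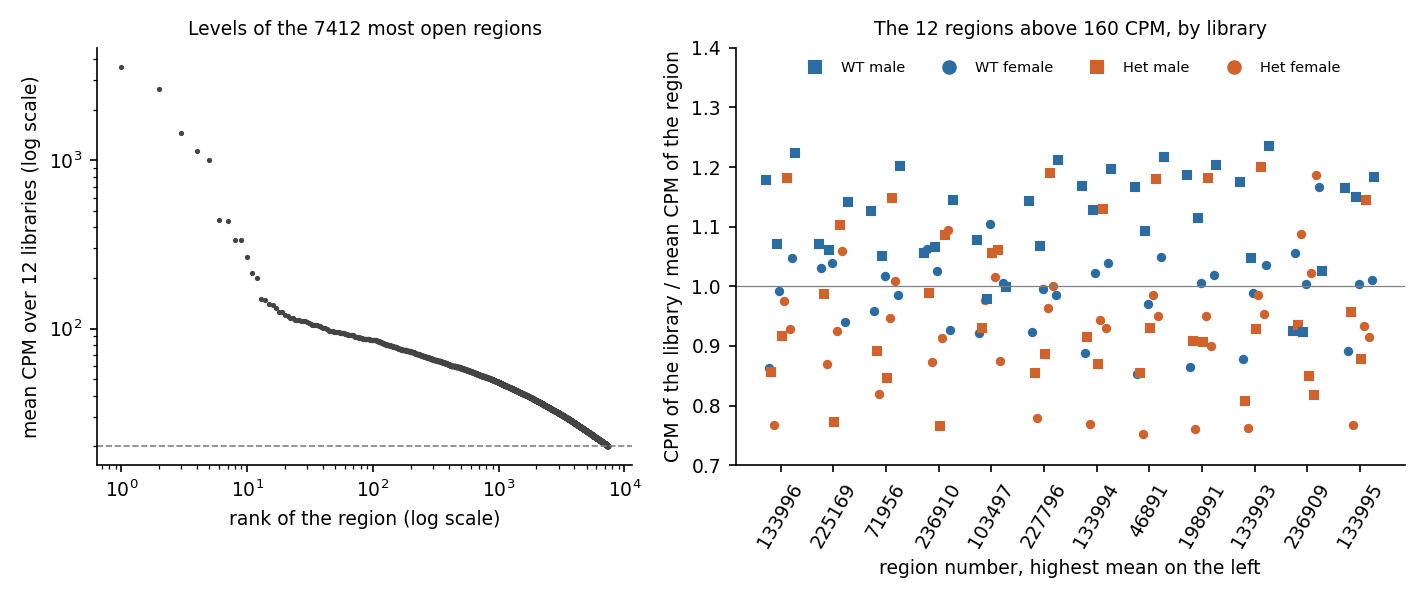
Left, the mean CPM over 12 libraries of each of the 7412 regions against its rank, both on log axes, with the threshold of 20 CPM dashed. Right, the CPM of each library divided by the mean of the region for the 12 regions above 160 CPM; squares are males, circles females, blue WT and orange Het. A steep head of 12 regions precedes a long shoulder, and WT 62 is the top point in 10 of the 12 while Het 21 is the bottom point in 8.

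The high regions were also the steadiest between libraries. The median residual SD around genotype and sex was 0.08 log2 units in the 7412 members, 0.10 in regions of 10 to 20 CPM and 0.18 in the 165617 other regions tested. An SD under 0.1 was found in 5975 members (80.6%) and in 12.2% of the other tested regions. The coefficient of variation over 12 libraries had a median of 6.36% in members and 13.95% in the others. In the 12 highest it was 13.4%, above the median of the members. Counting error shrinks as levels rise, and the number of reads per library is unknown, so its share in this order was not tested.

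An SD over 0.2 was found in 31 members and an SD over 0.3 in 14. The same libraries recurred in them: 15 of the 31 were lowest in WT 7, 16 were highest in WT 35, and 14 were both. An example is all_pfc_peak_166683, with 21.2 CPM in WT 7 and 42.2 CPM in WT 35 and 24.9 to 38.8 CPM in the other 10 libraries. Regions all_pfc_peak_166678, all_pfc_peak_166681 and all_pfc_peak_166684, close to it in number, had the same lowest and highest library. None of the 31 was called between genotypes and 1 was called between sexes (all_pfc_peak_101898, male minus female 0.32 log2, limma adjusted p = 0.0428). These regions were singled out after their values were seen.

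The libraries differed in the level of the members as a whole. The mean deviation of a library from the mean of 12, in log2 units, ran from -0.04 to 0.08 in WT (mean 0.02 ± 0.04 SD, n = 6) and from -0.09 to 0.04 in Het (mean -0.02 ± 0.05 SD, n = 6). The groups overlapped; WT 58 was the highest and Het 50 (-0.09) and Het 47 (-0.06) the lowest. Over the other tested regions the same deviations stayed between -0.01 and 0.01. The deviation widened with the level of the regions. In WT 58 it was 0.01 for regions of 5 to 10 CPM, 0.04 for 10 to 20, 0.08 for 20 to 40 and 0.10 for 40 to 80 CPM. In Het 50 it was -0.01, -0.04, -0.09 and -0.12 over the same steps.

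The 12 highest regions followed another order of libraries. There WT 62 stood at 0.23, WT 1 and Het 47 at 0.17, Het 41 at -0.17 and Het 21 at -0.26. WT 58 and Het 50, the extremes among the other members, were at 0.03 and -0.02. Every library had the same upper quartile over all regions, 4.64 CPM, and summed CPM between 994270 and 1041643.

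**Figure D2:**
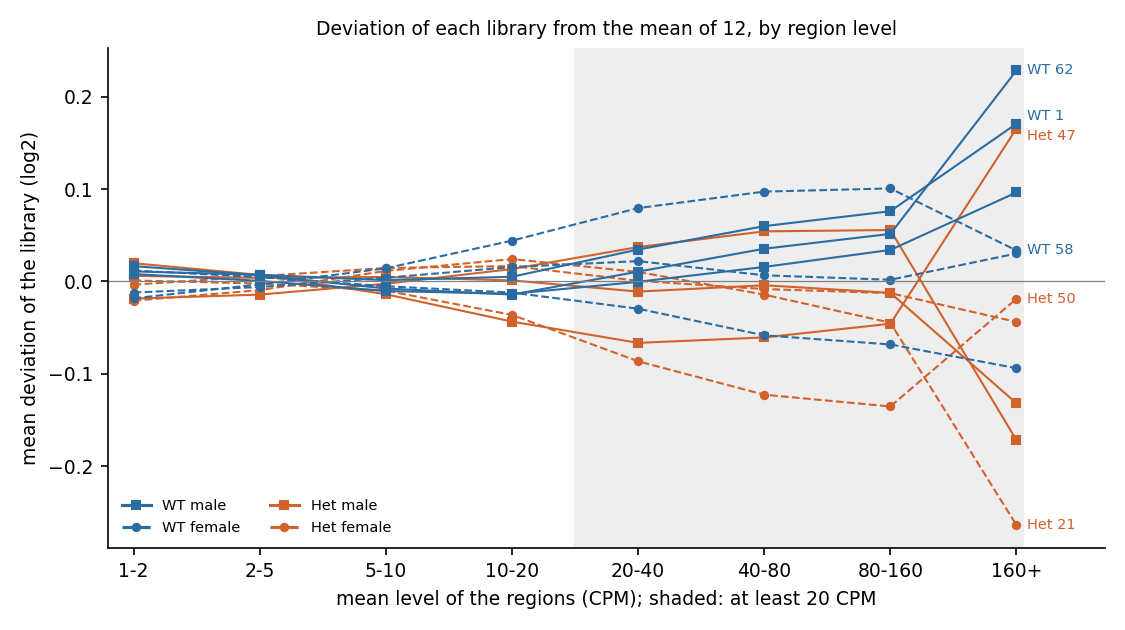
Mean deviation of each library from the mean of 12 libraries (log2) for regions grouped by mean CPM, with members shaded; solid lines and squares are males, dashed lines and circles females, blue WT and orange Het. All libraries lie within 0.05 of 0 below 20 CPM and fan out above it, with WT 58 at 0.08 and Het 50 at -0.09 for 20 to 40 CPM, and the order changes in the 12 regions at 160 CPM or more.

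In a principal component analysis of the members the first component held 33.2% of the variance, with WT 58 at 8.71 and Het 50 and Het 47 at -9.69 and -6.66, and the genotypes overlapped on it. The second held 23.5% and separated the sexes: all 6 males lay between 2.12 and 6.33 and all 6 females between -6.05 and -2.25. Pairwise correlations of libraries over the members, on log2 CPM, lay between 0.951 and 0.995, and no pair of libraries was identical.

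Between genotypes, few members differed beyond the spread between libraries in the corrected values, and most of those that did were lower in Het. A limma fit with genotype and sex, on the log2 values of the 173029 regions averaging 1 CPM or more, called 75 of the 7412 members (1.01%) at an adjusted p under 0.05. Over all regions tested, 0.464% were called. Of the 75 members, 68 were lower in Het (0.917%, against 0.25% of all regions tested) and 7 were higher (0.0944%, against 0.214%). Whether these shares differ between members and other regions was not tested. Libraries did not overlap, with every Het library below every WT library, in 178 members (2.4%, against 0.739% of all regions tested), and every Het library lay above every WT library in 14 (0.189%, against 0.547%). Of the called members, 42 of the 68 falls and 3 of the 7 rises were without overlap. These counts moved with the settings. Members with every Het library lower numbered 343 without Het 41, 310 without WT 7 and 270 without WT 28. Members with every Het library higher numbered 49 without Het 50, 27 without WT 58, 26 without Het 47, 24 without WT 28 or WT 35 and 23 without Het 21. Lower and higher were 118 and 74 after quantile normalization, 120 and 80 with the level trend of each library removed, and 173 and 38 when every library was scaled to the same summed CPM.

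The falls and rises that were called were small. The falls ran from 0.15 to 0.26 on the log2 scale with a median of 0.21, which is 13.4% lower, and the rises from 0.20 to 0.24 with a median of 0.23. Called regions outside the members had a median size of 0.41. Over all 7412 members the median Het minus WT difference was -0.05, against -0.01 over all regions tested, and 5532 members (74.6%) had a value below 0, against 52.1% of all. Members from the 5th to the 95th percentile lay between -0.15 and 0.07, and 78.8% lay within 0.1 of no change.

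The negative shift followed the level. The median Het minus WT difference was -0.01 in regions of 10 to 20 CPM, -0.04 in the 5735 members of 20 to 40 CPM, -0.05 in the 1547 of 40 to 80 CPM, -0.06 in the 118 of 80 to 160 CPM and -0.17 in the 12 highest. Deviations of single libraries widened over the same levels in both directions. From 10 to 20 CPM up to 40 to 80 CPM, WT 58 went from 0.04 to 0.10 and Het 50 from -0.04 to -0.12, while WT 7 went from -0.01 to -0.06 and Het 41 from 0.01 to 0.05. Falls were called in 0.55% of regions of 10 to 20 CPM and in 1.03% of the members of 20 to 40 CPM. The share was 0.517% in members of 40 to 80 CPM and 0.847% in those of 80 to 160 CPM. The 7 rises ran from 20.1 to 24.9 CPM.

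**Figure D3:**
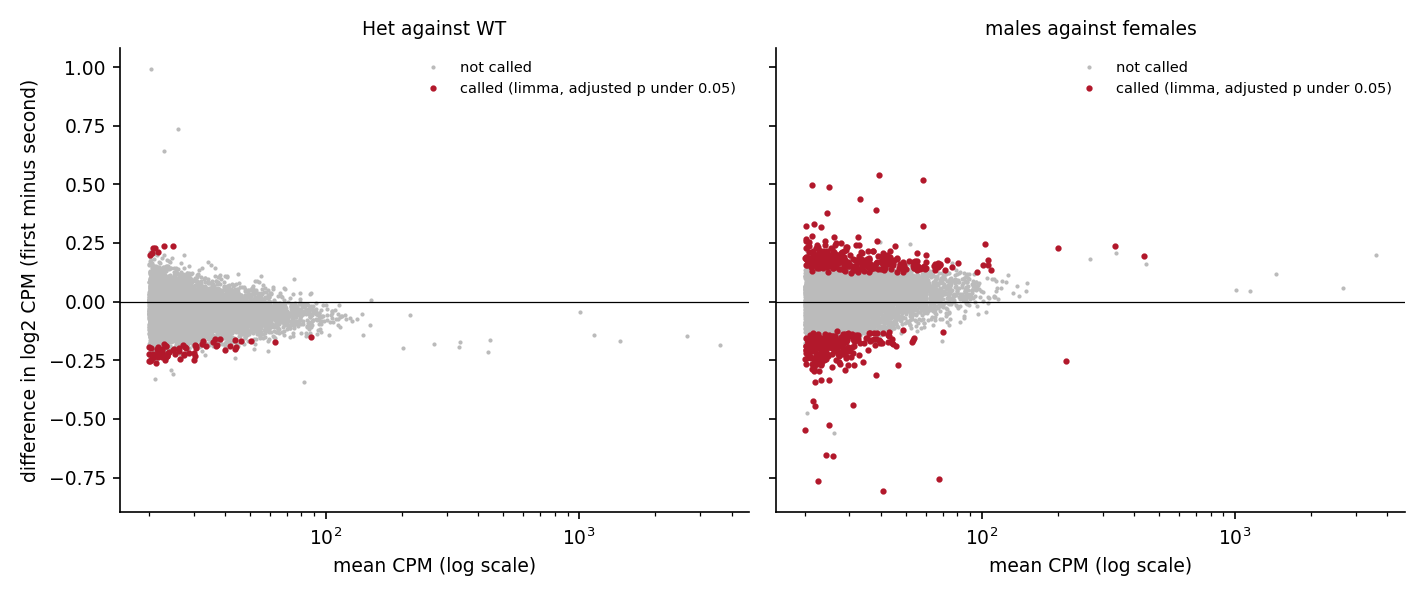
Differences in log2 CPM against mean CPM (log axis) for the 7412 regions, Het minus WT on the left and male minus female on the right; red points were called by limma at an adjusted p under 0.05. The left cloud lies below 0 (median -0.05) with 68 red points below and 7 above, and the right cloud is centred near 0 with 307 red points above and 263 below.

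The falls that were largest among the called members showed no overlap of the genotypes. In all_pfc_peak_18467 the WT libraries ran from 21.8 to 25.7 CPM (median 23.2; mean 23.3 ± 1.31 SD, n = 6) and the Het libraries from 18.6 to 20.6 CPM (median 19.4; mean 19.5 ± 0.827 SD, n = 6). All 6 Het libraries lay below all 6 WT libraries, and the difference was -0.26 log2 (SE 0.04, limma adjusted p = 0.0206). In all_pfc_peak_212210 WT ran from 20.5 to 23.9 CPM (median 21.7; mean 22.0 ± 1.46 SD) and Het from 16.5 to 20.1 CPM (median 18.6; mean 18.4 ± 1.24 SD). Again no Het library reached the lowest WT library, and the difference was -0.25 log2 (SE 0.05, limma adjusted p = 0.0289).

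In both of the largest called rises the genotypes overlapped. In all_pfc_peak_159382 WT ran from 18.9 to 22.6 CPM (median 21.4; mean 20.99 ± 1.60 SD) and Het from 22.2 to 27.6 CPM (median 24.8; mean 24.7 ± 2.17 SD), so the lowest Het libraries overlapped the highest WT ones. The difference was 0.24 log2 (SE 0.04, limma adjusted p = 0.0294). Within a sex the overlap was gone: WT males reached 22.6 CPM and Het males began at 25.3 CPM, and WT females reached 20.8 CPM and Het females began at 22.2 CPM.

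In all_pfc_peak_190586 WT ran from 17.3 to 27.4 CPM (median 23.8; mean 22.9 ± 4.52 SD) and Het from 20.6 to 32.5 CPM (median 27.2; mean 26.96 ± 5.001 SD). The wide overlap went with sex, since males exceeded females by 0.49 log2 in the same region (limma adjusted p = 9.50e-06). With sex in the fit the Het rise was 0.24 log2 (SE 0.05, adjusted p = 0.0445). WT males lay between 26.6 and 27.4 CPM and Het males between 29.8 and 32.5 CPM, while the highest WT female (21.05 CPM) lay above the lowest Het female (20.6 CPM).

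**Figure D4:**
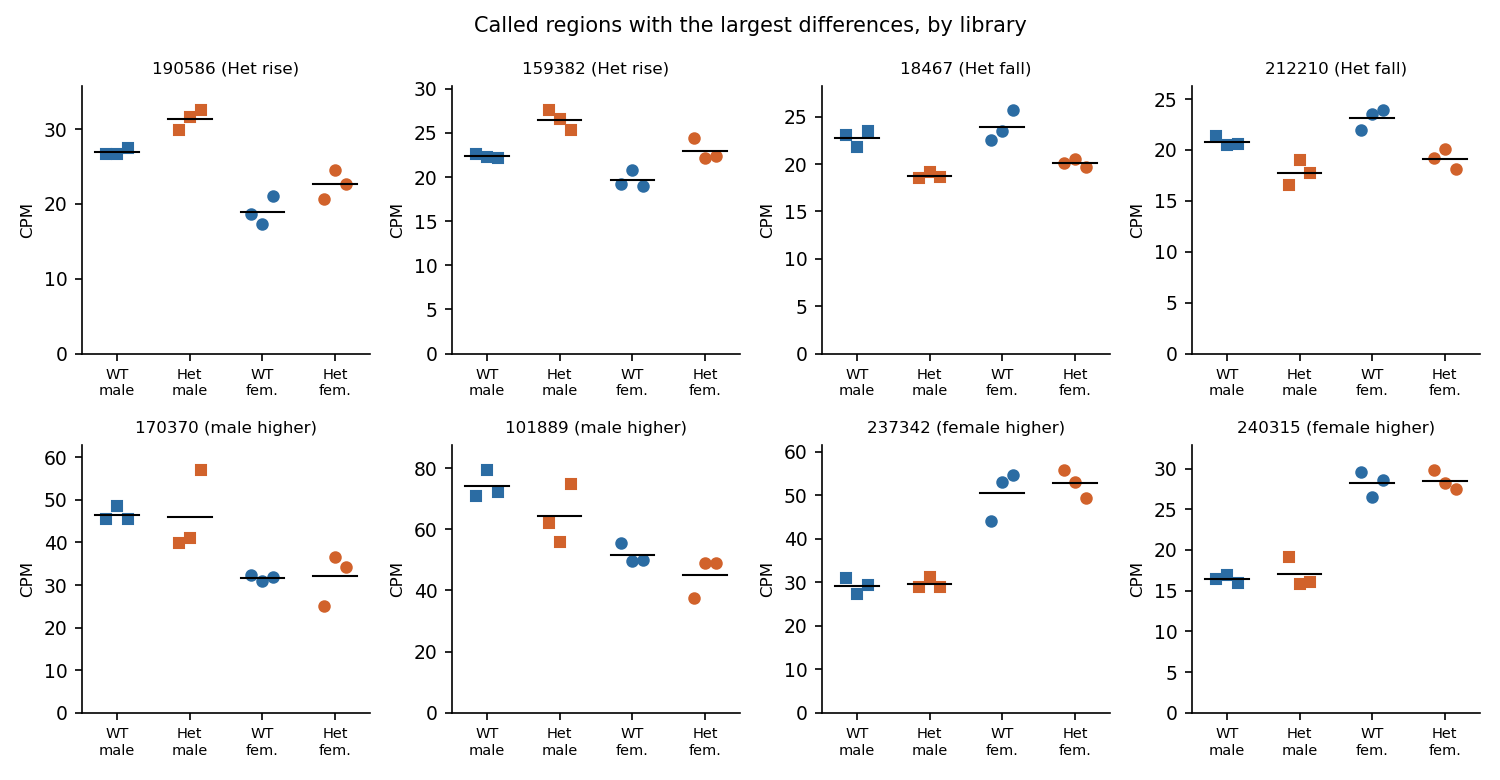
CPM by library in the called regions with the largest differences, on axes that start at 0; blue is WT, orange Het, squares males, circles females, and bars are group means. The upper row holds the Het rises (all_pfc_peak_190586 and all_pfc_peak_159382) and falls (all_pfc_peak_18467 and all_pfc_peak_212210), where steps between genotypes are a few CPM; the lower row holds the sex differences, the largest being 27.4 to 31.2 CPM in males against 44.1 to 55.9 CPM in females.

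The number of members called between genotypes depended on single libraries. It was 0 when WT 1, WT 58, WT 62, Het 21 or Het 44 was left out. It was 4 without Het 47, 5 without WT 28, 12 without WT 35, 15 without Het 50 and 16 without Het 11. It was 74 without WT 7 and 159 without Het 41. Shares of members and of all regions tested were 0.054% and 0.052% without Het 47, and 0.0675% and 0.0803% without WT 28. They were 0.162% and 0.12% without WT 35, 0.202% and 0.192% without Het 50, and 0.216% and 0.193% without Het 11. They were 0.998% and 0.464% without WT 7, and 2.15% and 0.57% without Het 41. In the fits with 0 members, 0.00173% to 0.0318% of all regions were called. The median difference over the members stayed between -0.06 and -0.03 in these 12 fits. Without the sex term limma called 0 members and 0.00231% of all regions tested. With it, 1733 members (23.4%) had an unadjusted p under 0.05, as did 16.3% of all regions tested.

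The split of the calls by direction moved with how the libraries were scaled. When the trend of each library with level was removed by a smooth curve, 77 members were called higher and 73 lower (150 in all, 2.02%, against 0.698% of all regions tested), and the median difference of the members was -0.0022. Of the 75 members called without that step, 61 were among the 150. Quantile normalization gave 82 higher and 76 lower (158, 2.13%, against 0.67%), with 62 of the 75 among them. Both steps bring every library to nearly the same level at each height, so a median near 0 follows from how they are built, and they leave no overall shift of the members to be seen. Scaling every library to the same summed CPM, which does not do this, gave 23 higher and 109 lower (132, 1.78%, against 0.643%), with a median difference of -0.03.

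**Figure D5:**
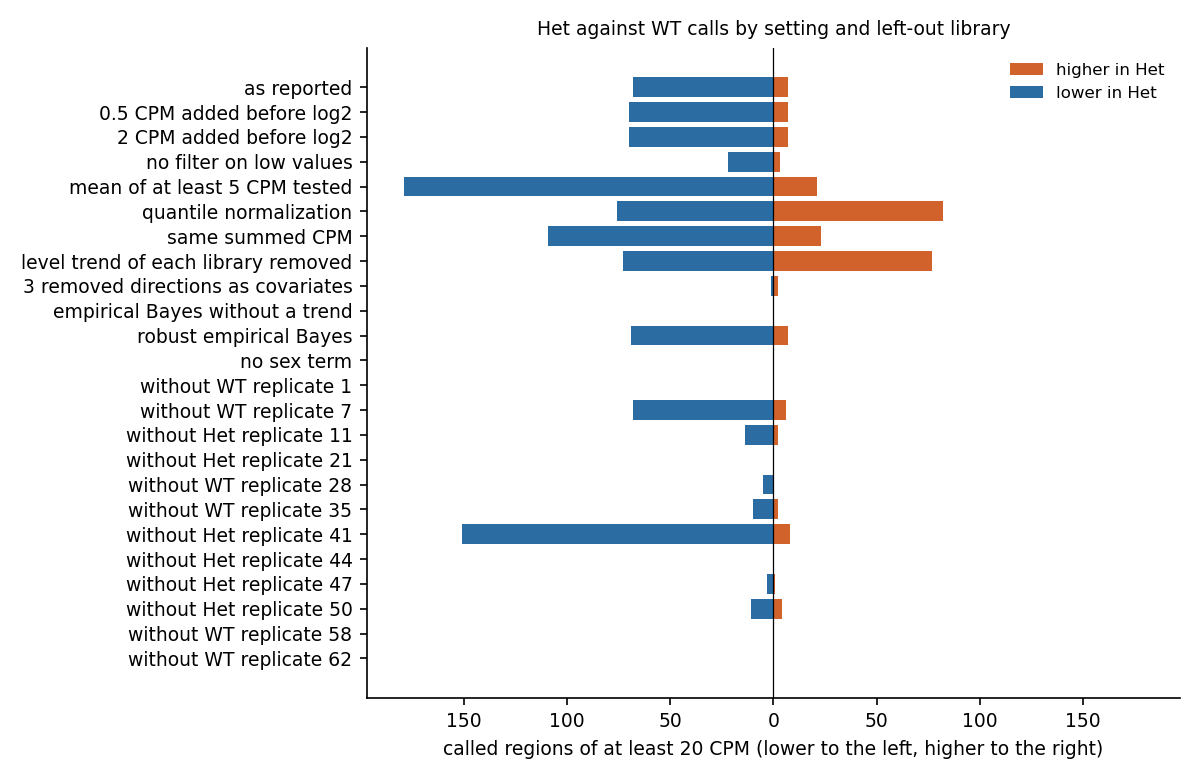
Number of the 7412 regions called between Het and WT under each setting and with each library left out; bars to the left are regions lower in Het and bars to the right regions higher in Het. The count as reported is 68 lower and 7 higher, the quantile and level-trend settings are near even, and 5 of the 12 left-out libraries bring it to 0.

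The deposited values had been corrected by RUVr, a method that estimates factors of unwanted variation from residuals and removes them. Of the 11 directions in which 12 libraries can differ, 3 were nearly empty (root mean square 0.0079 to 0.0116 log2, against 0.223 to 0.354 in the other 8). These 3 held 0.0667% of the genotype contrast, 0.0844% of the sex contrast and 68.7% of the genotype by sex contrast. The fit with genotype and sex counts them as residual directions although they hold almost no spread. Its SEs and p-values are therefore too small as measures of the full spread between libraries. The median SE of the members was 0.046 in that fit and 0.060 with the 3 directions as covariates. A fit that spends 3 degrees of freedom on them called 3 members between genotypes (0.0405% of the members). Over all regions tested it called 0.0139%, and none of the 75 was among them. Under it the limma adjusted p of the 4 regions above rose to 0.218 (all_pfc_peak_190586), 0.212 (all_pfc_peak_159382), 0.145 (all_pfc_peak_18467) and 0.180 (all_pfc_peak_212210). Their differences moved by less than their SE. They could hardly move, since the 3 directions hold 0.0667% of the genotype contrast, so this says nothing about their stability.

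The 3 members called under that fit were picked out after their values were seen. In all_pfc_peak_89361 (mean 81.6 CPM) the WT libraries ran from 81.7 to 97.0 CPM and the Het libraries from 54.9 to 92.4 CPM, with Het 47 inside the WT range. The difference was -0.34 log2 with an SE of 0.06 and a limma adjusted p of 0.00544; without the 3 directions the SE was 0.08 and the adjusted p 0.0565. Both other regions, all_pfc_peak_242702 and all_pfc_peak_242708, carry numbers near the end of the list and were among the most variable members.

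The end-of-list regions, 3 in all, had larger Het minus WT differences than any other member. In all_pfc_peak_242702 WT ran from 11.9 to 38.1 CPM (median 15.5) and Het from 18.2 to 38.7 CPM (median 34.96). In all_pfc_peak_242708 WT ran from 6.20 to 34.6 CPM (median 10.3) and Het from 14.1 to 35.9 CPM (median 29.6). In all_pfc_peak_242746, the last member by number, WT ran from 7.21 to 42.4 CPM (median 15.3) and Het from 14.1 to 41.9 CPM (median 24.7). WT 7 was the highest WT library in all 3, WT 58 or WT 62 the lowest, and the genotypes overlapped. Their residual SDs were 0.49, 0.78 and 0.79 log2, and the Het minus WT differences were 0.74 (SE 0.19, limma adjusted p = 0.0680), 0.99 (SE 0.29, adjusted p = 0.105) and 0.64 (SE 0.29, adjusted p = 0.283).

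Within each sex, no member passed the test of Het against WT. Limma called 0 members in males and 0 in females, and 0 regions (0%) of all tested in either. At an unadjusted p under 0.05 there were 613 members in males (8.27%, against 6.82% of all regions tested). In females there were 831 (11.2%, against 5.88%). The difference of the Het effect between the sexes was called in 0 members and in 0% of all regions. At an unadjusted p under 0.05 there were 0 members (67 of all regions, 0.0387%). Of the contrast behind that difference, 68.7% lies in the nearly empty directions. Little of it was left to test, so these 0 calls do not show equal effects in the sexes. Each effect within a sex also contains part of that contrast. The median difference of the members was -0.03 in males and -0.06 in females. With the 3 directions as covariates limma called 3 members in males (0.0405%, against 0.0185% of all regions tested), the same 3 end-of-list regions. The male difference was 1.77 log2 in all_pfc_peak_242702, 2.79 in all_pfc_peak_242708 and 1.93 in all_pfc_peak_242746, against 1.03, 1.52 and 1.03 without covariates, which are the plain differences of mean log2 values. None was called in females (0% of all regions tested). The difference between the sexes was called in 2 members (0.027%, against 0.00809%): all_pfc_peak_242702 at 2.04 log2 and all_pfc_peak_242708 at 3.54 log2, against 0.60 and 1.06 without covariates. Of the contrast behind that difference, 68.7% lies in the nearly empty directions.

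Sex separated more of the members than genotype did. Limma called 570 members (7.69%, against 7.25% of all regions tested): 307 were higher in males (4.14%, against 3.64%) and 263 higher in females (3.55%, against 3.61%). In this fit these shares were close to those over all regions. They were not in every setting. Without the empirical Bayes trend 1.24% of the members were called, against 5.24% of all. After quantile normalization it was 15.1%, against 7.89%. Every male library lay above every female library in 122 members (1.65%, against 1.58%), and every female library above every male library in 102 (1.38%, against 1.53%). The differences had a median size of 0.18 log2 and ran from 0.12 to 0.81.

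Called sex differences were unevenly spread over levels. Between 20 and 40 CPM the counts were 230 higher in males and 244 higher in females. At 40 CPM or more, where 5.72% of members were called against 7.25% of all regions tested, the counts were 77 and 19. That imbalance was 160 to 92 after the level trend of each library was removed, 117 to 130 after quantile normalization and 156 to 33 at the same summed CPM. With the level trend removed, 1108 members were called in all (14.9%, against 7.96% of all regions tested). With the 3 empty directions as covariates 142 members were called (1.92%, against 1.81%), of which 137 were among the 570.

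The largest sex differences were on the female-higher side. In all_pfc_peak_237342 males ran from 27.4 to 31.2 CPM (median 29.2) and females from 44.1 to 55.9 CPM (median 53.0), and the male minus female difference was -0.81 log2 (SE 0.05, limma adjusted p = 1.37e-09). In all_pfc_peak_240315 males ran from 15.8 to 19.1 CPM (median 16.3) and females from 26.6 to 29.9 CPM (median 28.4), a difference of -0.76 (SE 0.05, adjusted p = 2.87e-09). In neither did any male library reach a female library. Of the 9 called members with a difference over 0.5 log2, 7 were higher in females, and those 7 carried numbers between 237342 and 241654. Most female-higher calls carried lower numbers. Above a cut set somewhat below 237342 lay 17 of the 263 female-higher calls (6.46%) and 5 of the 307 male-higher calls (1.63%). Of all 7412 members, 241 (3.25%) lay above that cut. Whether these shares differ was not tested.

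Both other large differences were male-higher. In all_pfc_peak_170370 males ran from 39.9 to 57.1 CPM (median 45.5) and females from 25.2 to 36.6 CPM (median 32.1), a difference of 0.54 log2 (SE 0.08, limma adjusted p = 0.000710). In all_pfc_peak_101889 males ran from 55.8 to 79.5 CPM (median 71.5) and females from 37.4 to 55.4 CPM (median 49.3), a difference of 0.52 (SE 0.07, adjusted p = 0.000162). Male and female libraries did not overlap in either, though the lowest male (55.8 CPM) and the highest female (55.4 CPM) of the latter were close. All 4 of these regions were called in the same direction under each of the 22 alternatives run for them.

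Among the 12 highest regions, 11 had a higher male than female value and 4 were called. Higher in males were all_pfc_peak_133994, all_pfc_peak_198991 and all_pfc_peak_133995, and higher in females was all_pfc_peak_236909, by 0.25 on the log2 scale (limma adjusted p = 0.00456). These 12 regions also carry the widest deviations of single libraries, with males WT 62, WT 1 and Het 47 at the top. Their part in the sex difference was not tested.

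The same threshold in the embryonic table of the study marked a larger share of the regions. In E14.5 cortex, with 17 libraries labelled WT, Het or Hom, 10790 of 205908 regions (5.24%) averaged 20 CPM or more, and they held 38.7% to 40.6% of the summed CPM of a library, against 24.3% to 26.3% in the adult. The median member had 30.6 CPM and the highest 3650 CPM, and 20 regions reached 160 CPM. The tables were normalized separately and their identifiers do not match regions across ages, so these levels stand side by side without a test.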

How the data were processed

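ATAC-seq of adult prefrontal cortex was measured in 12 libraries (6 WT, 6 Het; 6 males, 6 females). The authors deposited log2 CPM per region after RUVr correction, per the file headers. The submitters' processing notes name mm10, Trimmomatic, Bowtie2, STAR and HTSeq without roles; the peak caller and the number of RUVr factors were not given in the sources used here. Depth per library is therefore unknown, and no interval from counts was made.

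CPM was computed as 2 to the power of the deposited log2 value, and members were the regions averaging 20 CPM or more. limma 3.58.1 (R 4.3.3) with an empirical Bayes trend was fitted to log2 values of the 173029 regions of at least 1 CPM, with genotype and sex. Effects within a sex used a mean per genotype and sex. Benjamini-Hochberg adjustment ran over all 173029 regions, and a region was called at an adjusted p under 0.05. The fit was tested on simulated data with independent noise in each region and library. The simulation held no emptied directions and no library deviations by level, so it does not cover their effect on the calls. The members and lists were chosen with earlier results of these data known.

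Regions named by rule were the 3 highest, and, for genotype and for sex, the called members with the largest differences in each direction; others are named where said. Alternatives were offsets, filters, scalings, covariates, spread models, other thresholds and each library left out. The level trend of a library was a lowess curve (span 0.3) of its deviation against mean level.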

Additional observations from a re-analysis of the deposited data

Results flagged for a closer look

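In 3 named regions, 1 library of a sex stood apart from the other 5 by Dixon's criterion. In all_pfc_peak_71956 the lowest female was Het 21 at 1187 CPM, in all_pfc_peak_101889 the lowest female was Het 21 at 37.4 CPM, and in all_pfc_peak_240315 the highest male was Het 11 at 19.1 CPM. Chance gives about 1 in 20 groups checked, or 3 of the 60 groups here.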

How the results depend on the processing

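Of 7412 members, 75 were called between genotypes by limma. The count was 25 with no filter on low values (0.337%, against 0.156% of all regions tested). It was 200 when regions of at least 5 CPM were tested (2.7%, against 1.83%) and 158 after quantile normalization (2.13%, against 0.67%). It was 132 (109 lower, 23 higher) at the same summed CPM (1.78%, against 0.643%) and 150 with the level trend removed (2.02%, against 0.698%). With the empty directions as covariates it was 3 (0.0405%, against 0.0139%). Without a trend in the empirical Bayes step it was 0, against 0.402% of all regions tested. Without the sex term it was also 0, against 0.00231%. It was 203 for members of at least 10 CPM (0.902%) and 9 for those of at least 40 CPM (0.537%). It was 41 (0.696%) for those at 20 CPM or more in every library, with 0.464% of all regions called in each. Without the 12 highest members, an alternative chosen after seeing the data, it was 75. Leaving out 1 library gave 0 to 159. The cause of these changes was not tested.

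The 570 calls between sexes became 1117 after quantile normalization (15.1%, against 7.89% of all regions tested). They were 1108 with the level trend removed (14.9%, against 7.96%) and 142 with covariates (1.92%, against 1.81%). Without the empirical Bayes trend they were 92 (1.24%, against 5.24%). At 10 CPM they were 2248 (9.99%) and at 40 CPM 96 (5.72%), both against 7.25%. They were 230 without WT 1 (3.1%, against 3.02%) and 349 without Het 44 (4.71%, against 4.1%). They were 369 without WT 62 (4.98%, against 4.64%) and 374 without Het 21 (5.05%, against 4.54%). They were at most 693, without Het 41 (9.35%, against 8.49%). With covariates, 3 members were called in males and 2 in the difference between sexes. A threshold of 10, 40 or 80 CPM gave 22498, 1677 or 130 members.

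The Het differences of all_pfc_peak_190586, all_pfc_peak_159382, all_pfc_peak_18467 and all_pfc_peak_212210 kept their sign in all 23 alternatives run for them and their call in 7, 14, 15 and 13. The median difference over the members, -0.05 as reported, was -0.0024 after quantile normalization and -0.0022 with the level trend removed, both near 0 by their construction. No paired analysis was possible because the adult labels pair no WT library with a Het library. Depth is unknown, so what it limits was not assessed.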
